A study of Homo sapiens with 11 samples.

Results

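The 10 genes described here encode the 4 receptors of the epidermal growth factor receptor (EGFR) family, EGFR, ERBB2, ERBB3 and ERBB4, and 6 of their ligands, AREG, EREG, HBEGF, TGFA, NRG1 and BTC. They were taken by symbol from a count table of 28152 gene symbols, and all 10 were present. The labels describe xenografts of the human breast cancer line BT-474, classed there as positive for hormone receptors and HER2 (the ERBB2 protein), grown in a mammary fat pad of female athymic nude mice, which lack a thymus and hence most T cells but keep other host cells. All animals carried an estrogen pellet holding 0.72 mg of estradiol for slow release over 90 days, and tumours could be enrolled above 95 mm3. The 6 vehicle tumours came from animals given 5% mannitol in water, and the 5 evexomostat tumours from animals given evexomostat (SDX-7320 in the titles) in the same solution at 12 mpk, both under the skin every 4 days. Evexomostat inhibits methionine aminopeptidase 2, an enzyme that trims the first methionine from new proteins. All libraries are labelled day 33. The comparison asks whether transcripts of the receptors and ligands differed between tumours of treated and vehicle animals.

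EGFR family receptors are tyrosine kinases of the cell surface that act in pairs. EGFR binds the ligands amphiregulin (AREG), epiregulin (EREG), heparin-binding EGF (HBEGF), TGF-alpha (TGFA) and betacellulin (BTC). ERBB3 and ERBB4 bind the neuregulins, of which NRG1 is one, and ERBB4 also binds epiregulin, betacellulin and heparin-binding EGF. ERBB2 has no known soluble ligand and is the preferred partner of the others, whereas ERBB3 has little kinase activity of its own. The ligands are made as membrane proteins, and proteases release them. In breast cancer, extra copies of ERBB2 define the HER2-positive class, to which BT-474 is generally assigned.

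Library totals ranged from 22808033 to 39249329 counts, and the limit of 3 counts corresponded to 0.0774 to 0.145 CPM, a count scaled to a common library size with TMM factors, which correct for differences in library composition. That limit covers counting error only. Vehicle replicate 001 stood apart in its scaling, with a TMM factor of 0.86 against 0.96 to 1.08 in the other libraries. The labels give 1 tumour per library and name no shared litter or batch, and all libraries share the label day 33.

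The labelled receptor status was set beside the transcripts. ERBB2 ranked 6097 of 25526 genes by mean CPM per kilobase of exon, the scale on which levels of different genes are compared here. Among 12 genes fixed as neighbours of ERBB2 on its chromosome arm, which are commonly gained with it, 8 were tested. Over all tumours MIEN1 averaged 25.6 CPM per kb and STARD3 19.9, and the other 6 ran from 0.140 in TCAP to 8.38 in CDK12, beside ERBB2 means of 9.27 under vehicle and 9.60 under evexomostat. GRB7, an adaptor gene that lies beside ERBB2, had 3 to 18 counts per library and was not tested. These transcripts do not show the high ERBB2 level of the labelled HER2 class, and gene copies and protein were not measured here. ESR1, the estrogen receptor gene, had 1 to 17 counts, and PGR, the progesterone receptor gene, had 0 to 5, which goes against the labelled hormone receptor status. Of 11 luminal epithelial markers, KRT18, KRT8 and XBP1 averaged 74.0, 72.8 and 64.3 CPM per kb, and the other 8 lay at or below 2.08. All these levels may hold mouse reads, since what was done with them is not given. Of 9 basal or mesenchymal markers, VIM averaged 633.8, CD44 137.0, FN1 54.7 and KRT5 29.8 CPM per kb, and the other 5 ran from 0.597 to 14.9. The FN1 mean spans groups that differed, at 770.4 CPM under vehicle and 170.3 under evexomostat (log2 fold change -2.18, edgeR adjusted p 0.0503). The libraries are therefore called here by their label only.

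EGFR and ERBB2 were the abundant receptor transcripts in all 11 tumours, and ERBB3 and ERBB4 were low. Under vehicle, EGFR averaged 14.0 ± 5.99 CPM per kb (SD, n = 6), ERBB2 9.27 ± 2.49, ERBB3 0.198 ± 0.0859 and ERBB4 0.0932 ± 0.0434. The ranges of EGFR and ERBB2 overlapped, as did those of ERBB3 and ERBB4. Within a library, EGFR was above ERBB2 per length in 5 of 6 vehicle tumours and in 3 of 5 evexomostat tumours. EGFR made up 45.1% to 67.8% of the summed receptor level per length under vehicle and 39.04% to 67.6% under evexomostat. ERBB3 never exceeded 1.28% of that sum and ERBB4 never exceeded 0.631%.

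Among the ligands, HBEGF was the most even and EREG the most variable. Under vehicle, HBEGF averaged 10.7 ± 4.40 CPM per kb (SD, n = 6), EREG 10.5 ± 13.1 and AREG 7.34 ± 4.16, and these 3 overlapped. TGFA at 1.67 ± 0.823, NRG1 at 1.55 ± 0.711 and BTC at 1.15 ± 0.497 CPM per kb had lower means and overlapped with each other and with the lowest tumours of EREG. TGFA and NRG1 also overlapped with AREG, and BTC did not. HBEGF was the highest ligand in 4 of 6 vehicle tumours and EREG in the other 2, while HBEGF was the highest in 5 of 5 evexomostat tumours. EREG exceeded AREG per length in 3 of 6 vehicle tumours and in 0 of 5 evexomostat tumours. The level of AREG is uncertain, since its reads may have been lost to a near-identical gene copy, as described below. All orders, overlaps and sums with AREG in this paragraph take its counts as they stand. The summed ligand level had a median of 31.4 CPM per kb under vehicle, with a range of 14.3 to 60.0, and 16.4 under evexomostat, with a range of 14.0 to 26.7, so the groups overlapped. This difference was not tested.

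**Figure D1:**
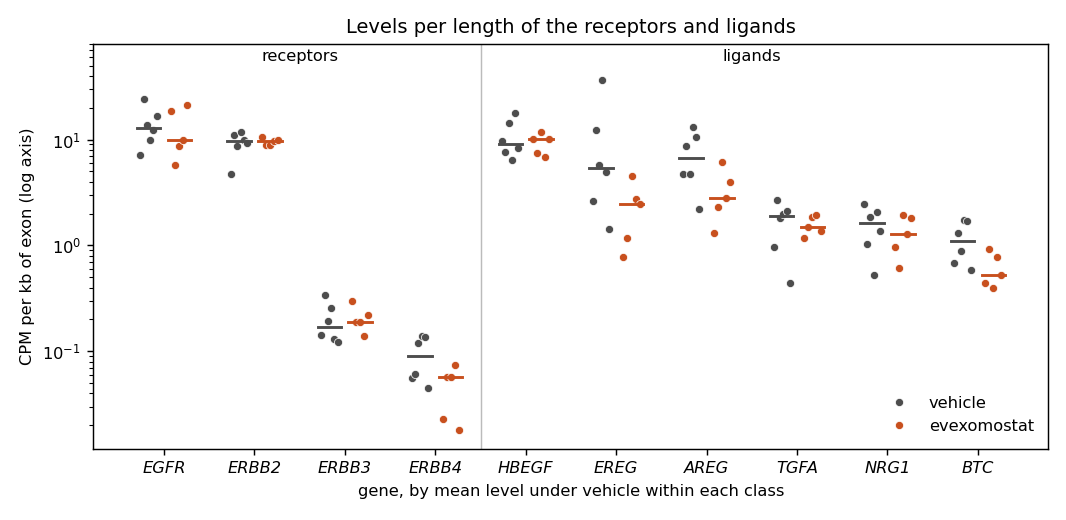
Level of each receptor and ligand in CPM per kb of exon (log axis) in every tumour, with vehicle in grey and evexomostat in orange; each point is a tumour and each bar a group median. EGFR and ERBB2 lie near 10 CPM per kb in both groups, far above ERBB3 and ERBB4, and EREG spreads widest under vehicle, from 1.43 to 36.2 CPM per kb.

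No member passed an adjusted p of 0.05 between evexomostat and vehicle in edgeR's quasi-likelihood test, 0 of 10, against 0.606% of the 16653 tested genes (101 genes), with 0.174% higher and 0.432% lower. At an unadjusted p under 0.05 there were 4 of 10 members, EREG, AREG, BTC and ERBB4, all lower under evexomostat, against 13.4% of tested genes in either direction and 8.55% that were lower. This count was 0 without vehicle replicate 005, 1 (EREG) without evexomostat replicate 002, 2 without vehicle replicate 006, 3 or 4 without each other library, and 0 with limma-trend on log2(RPM + 1). After adjustment DESeq2 called 0 members, against 3.9% of tested genes, and limma-trend 0, against 0.444%. Limma-voom with sample quality weights called BTC alone, where it called 6.36% of tested genes, 2.31% higher and 4.05% lower. Without vehicle replicate 001 edgeR again called 0 members, against 5.22% of tested genes, 1.98% higher and 3.24% lower. The median log2 fold change was -0.04 over the 4 receptors and -0.57 over the 6 ligands, beside -0.04 over all tested genes. In 8 of 10 members the fold change was below 0, as it was in 55.4% of tested genes. The 2 groups overlapped in each of the 10 members, and they did not overlap in 2.97% of tested genes. In bulk tumour RNA, fewer cells of a type and less RNA per cell cannot be told apart, and this holds for every difference given here.

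**Figure D2:**
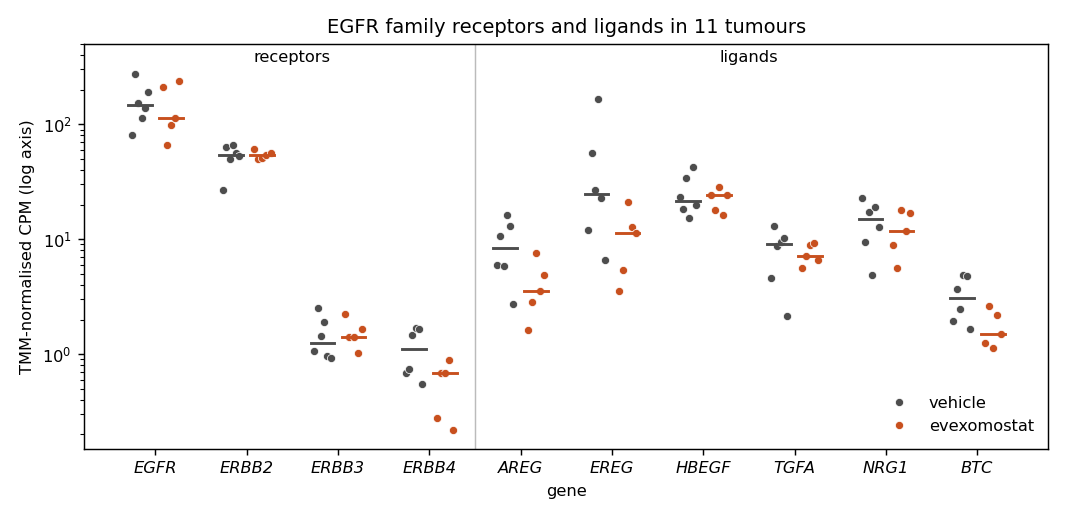
TMM-normalised CPM of the 10 genes (log axis) in each of 6 vehicle (grey) and 5 evexomostat (orange) tumours, where bars are group medians. The groups overlap in every gene. EREG, AREG, BTC and ERBB4 have lower medians under evexomostat, and so do EGFR, TGFA and NRG1. The medians of ERBB2 are nearly equal, and those of ERBB3 and HBEGF are higher under evexomostat.

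EGFR, the receptor of most of these ligands, had a lowest, median and highest level of 80.9, 146.8 and 275.2 CPM under vehicle. Under evexomostat it was at 211.5, 65.9, 98.8, 113.0 and 238.9 CPM in replicates 002, 003, 004, 005 and 007. Both groups held tumours near the bottom and the top of the range, and EGFR varied 4.18-fold over the 11 tumours. The log2 fold change was -0.12 (95% interval -0.89 to 0.64, edgeR adjusted p 0.924), an interval that leaves room for a change in either direction. Its sign depended on single tumours: the log2 fold change was 0.10 without vehicle replicate 003 and 0.06 without evexomostat replicate 003, not past the threshold in either case.

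ERBB2, the shared partner receptor, was the steadiest member. It had a lowest, median and highest level of 26.7, 54.6 and 66.5 CPM under vehicle, and lay at 60.5, 50.0, 50.8, 54.5 and 55.9 CPM in evexomostat replicates 002, 003, 004, 005 and 007. Vehicle replicate 001 was the lowest tumour, and all the others lay close together. The log2 fold change was 0.05 (95% interval -0.36 to 0.46, edgeR adjusted p 0.951), and without vehicle replicate 001 it was -0.08 (edgeR adjusted p 0.669). The ratio of EGFR to ERBB2 counts within a tumour, which no scaling between libraries can alter, ran from 1.32 to 4.37. As a log2 ratio the vehicle tumours averaged 1.55 ± 0.47 (SD, n = 6) and the evexomostat tumours 1.26 ± 0.68 (SD, n = 5). The difference of -0.28 did not pass a two-sided exact permutation test over all 462 splits (p = 0.422, and 0.422 adjusted over the 2 ratios tested).

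ERBB3, the neuregulin receptor with a weak kinase, had 22 to 98 counts per library. Its log2 fold change was 0.07 (95% interval -0.61 to 0.74, edgeR adjusted p 0.961). ERBB4, the neuregulin receptor with an active kinase, had 7 to 63 counts. Its lowest, median and highest levels under vehicle were 0.551, 1.10 and 1.70 CPM, and under evexomostat it was at 0.279, 0.689, 0.688, 0.894 and 0.218 CPM in replicates 002, 003, 004, 005 and 007. Of the evexomostat tumours, replicates 002 and 007 lay below all vehicle tumours. The log2 fold change was -1.05 (95% interval -1.98 to -0.12, unadjusted p 0.0304, edgeR adjusted p 0.307), so ERBB4 did not pass the threshold over all genes.

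EREG, which encodes epiregulin, showed the widest spread of the members and the largest difference in group means. Under vehicle it was at 12.1, 56.6, 26.7, 167.1, 22.8 and 6.62 CPM in replicates 001, 003, 004, 005, 006 and 007. Under evexomostat it was at 3.57, 5.43, 20.9, 12.8 and 11.3 CPM in replicates 002, 003, 004, 005 and 007. Vehicle replicates 003, 004, 005 and 006 lay above every evexomostat tumour, whereas vehicle replicates 001 and 007 fell inside the evexomostat range. The log2 fold change was -2.17 (SE 0.75, 95% interval -3.80 to -0.55, unadjusted p 0.0124, edgeR adjusted p 0.222). Without vehicle replicate 005, the highest tumour, it was -1.21 (edgeR adjusted p 0.393), and without vehicle replicate 001 it was -2.37 (edgeR adjusted p 0.0781). The authors' deposited table gives EREG a log2 fold change of -2.10 and an adjusted p of 0.0734.

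AREG, which encodes amphiregulin, had a lowest, median and highest level of 2.72, 8.31 and 16.4 CPM under vehicle. Under evexomostat it was at 1.61, 2.84, 7.61, 3.51 and 4.88 CPM in replicates 002, 003, 004, 005 and 007. Vehicle replicate 007 was the lowest vehicle tumour, below 4 of the evexomostat tumours. The log2 fold change was -1.16 (SE 0.46, 95% interval -2.15 to -0.16, unadjusted p 0.0258, edgeR adjusted p 0.290). The GRCh37 genome build, which the submitters' processing notes name, carries a near-identical second copy of AREG, so reads that fit both copies may have been lost and the level of AREG is uncertain.

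BTC, which encodes betacellulin, had 31 to 180 counts per library. Its lowest, median and highest levels under vehicle were 1.65, 3.09 and 4.85 CPM, and under evexomostat it was at 1.24, 2.63, 1.12, 2.19 and 1.49 CPM in replicates 002, 003, 004, 005 and 007. Evexomostat replicates 002, 004 and 007 lay below all vehicle tumours. The log2 fold change was -0.90 (SE 0.34, 95% interval -1.64 to -0.16, unadjusted p 0.0207, edgeR adjusted p 0.267). Limma-voom with sample quality weights gave -1.15 and an adjusted p of 0.0289.

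**Figure D3:**
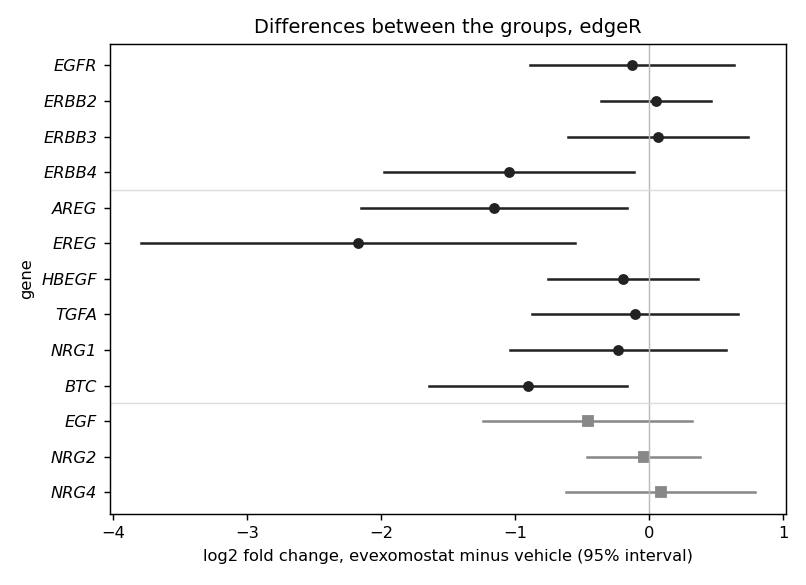
Log2 fold change (evexomostat minus vehicle) from edgeR for the 10 members (circles) and for 3 other tested ligands (squares), with 95% intervals that are not adjusted for the number of genes. The intervals of EREG, AREG, BTC and ERBB4 lie below 0, and those of the other genes include 0.

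The remaining ligands of the set showed smaller differences between groups. HBEGF, whose product is held at the cell surface by heparan sulphate, ranged from 15.2 to 42.4 CPM under vehicle and from 16.4 to 28.4 under evexomostat, with a log2 fold change of -0.19 (95% interval -0.75 to 0.37, edgeR adjusted p 0.817). TGFA, which encodes TGF-alpha, ranged from 2.13 to 12.9 CPM under vehicle and from 5.65 to 9.20 under evexomostat. Its log2 fold change was -0.11 (95% interval -0.88 to 0.67, edgeR adjusted p 0.941). NRG1, which encodes a ligand of ERBB3 and ERBB4, ranged from 4.85 to 22.7 CPM under vehicle and from 5.59 to 17.8 under evexomostat, with a log2 fold change of -0.23 (95% interval -1.04 to 0.58, edgeR adjusted p 0.858). In these 3 genes the evexomostat range fell within the vehicle range. The log2 ratio of HBEGF to AREG counts within a tumour had a mean of 1.62 ± 1.11 (SD, n = 6) in vehicle tumours and of 2.59 ± 0.77 (SD, n = 5) in evexomostat tumours. The difference of 0.97 did not pass a two-sided exact permutation test (p = 0.149, and 0.299 adjusted over 2 ratios). This ratio shares the uncertainty in the level of AREG.

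Tumours differed in these genes more than in most. The biological coefficient of variation, edgeR's estimate of the spread between tumours of a group beyond counting error, was above the median of all tested genes (0.264) in 9 of 10 members. EREG, at 0.772, exceeded 99.3% of tested genes and AREG, at 0.516, exceeded 94.5%. ERBB2, at 0.234, was the only member below the median. These values are a description without a test.

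EREG and AREG had the strongest correlation among the 45 pairs of members. With group means removed, their log2 CPM correlated at r = 0.87 (Spearman's rho 0.85) over 11 tumours. Permuting tumours within groups in all 86400 ways gave an exact p of 0.00162 for r, or 0.0729 adjusted over 45 pairs, and an exact p of 0.00275 for rho, or 0.124 adjusted. No pair passed after adjustment. Without the 2 tumours farthest from the median of AREG, vehicle replicates 005 and 007, r was 0.78. It was 0.85 within vehicle alone, 0.94 within evexomostat alone and 0.87 without vehicle replicate 001. The next pairs were AREG with TGFA (r = 0.77, rho 0.68, adjusted exact permutation p 0.148 for r) and EREG with TGFA (r = 0.76, rho 0.70, adjusted exact permutation p 0.207). HBEGF had its highest correlation with NRG1 (r = 0.70, rho 0.64, adjusted exact permutation p 0.207). All values share the scaling of their library.

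**Figure D4:**
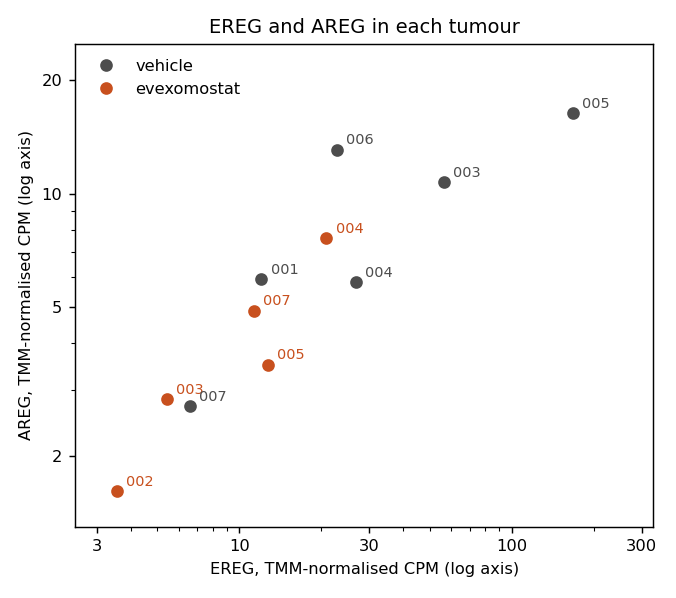
TMM-normalised CPM of EREG (horizontal, log axis) against AREG (vertical, log axis) in each tumour, with vehicle in grey and evexomostat in orange, labelled by replicate number. The tumours lie along a rising band from evexomostat replicate 002 (3.57 and 1.61 CPM) to vehicle replicate 005 (167.1 and 16.4 CPM), and vehicle replicate 007 sits among the evexomostat tumours.

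A search over 13068 genes with a mean log2 CPM of at least 1 gave the genes whose pattern was closest to EREG. Likeness was the root mean square difference of log2 CPM after centring within groups, over 10 tumours without vehicle replicate 001. SH3BGRL was closest at 0.65, followed by AREG at 0.67, CHRNA9 at 0.68, SOX2 at 0.73 and RENBP at 0.75, against a median of 1.27 over all genes searched. For EGFR the closest were NALCN at 0.25, ARG2 at 0.29, SGK1 and PRKCE at 0.30 and CRYBG3 at 0.31, against a median of 0.61. No other member was among the 5 closest to EGFR.

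EREG, AREG and BTC stand near each other on chromosome 4, in the order EPGN, EREG, AREG and BTC, and were 3 of the 4 members with an unadjusted p under 0.05, so their promoters are shown here. The 250 bases before each start come from RefSeq (GRCh38.p14), where 8 of the 10 members had an entry and ERBB3 and NRG1 had none. They lie at chr4:74364895-74365144 (plus strand) for EREG, chr4:74444886-74445135 (plus strand) for AREG and chr4:74794524-74794773 (minus strand) for BTC. Each is written 5′ to 3′ along its gene, and capitals mark a TATA box (TATAAA) or a cAMP response element (TGACGTCA), both searched on both strands.
EREG: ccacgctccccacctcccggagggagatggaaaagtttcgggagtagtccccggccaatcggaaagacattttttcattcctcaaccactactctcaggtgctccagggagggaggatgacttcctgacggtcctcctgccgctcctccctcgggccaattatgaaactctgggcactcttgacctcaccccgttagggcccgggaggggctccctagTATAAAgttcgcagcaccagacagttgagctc
AREG: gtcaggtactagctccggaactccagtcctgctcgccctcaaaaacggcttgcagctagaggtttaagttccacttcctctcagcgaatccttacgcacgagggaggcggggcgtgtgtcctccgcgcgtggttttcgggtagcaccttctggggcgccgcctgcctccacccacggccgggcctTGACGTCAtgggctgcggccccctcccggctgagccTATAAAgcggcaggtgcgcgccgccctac
BTC: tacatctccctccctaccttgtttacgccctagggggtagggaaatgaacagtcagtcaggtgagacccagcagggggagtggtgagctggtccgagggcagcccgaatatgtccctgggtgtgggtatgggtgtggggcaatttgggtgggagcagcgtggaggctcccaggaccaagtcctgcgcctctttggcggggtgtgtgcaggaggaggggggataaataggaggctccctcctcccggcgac

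EREG and AREG, the pair of members with the highest correlation, both hold TATAAA, at 32 to 27 bases before the start in EREG and 29 to 24 in AREG. AREG also holds TGACGTCA at 65 to 58 bases before its start. BTC holds neither run of letters in this window. TATAAA is not particular to this pair. EGFR (r = -0.03 with EREG and -0.14 with AREG) holds it in 1 of its 2 entries, at 36 to 31 and at 146 to 141 bases before that start. The other 4 members with an entry do not hold it, among them TGFA (r = 0.76 with EREG and 0.77 with AREG). Whether these letters have a part in the correlations was not tested. Of 35116 promoter windows of the same length, 10.7% hold TATAAA and 1.65% hold TGACGTCA. A match is a run of letters and not a measured binding site.

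The tested genes around these ligands were looked at after the values of EREG, AREG and BTC had been seen, so they are described without a test of the region. Of the 12 tested neighbours, 6 on each side, 9 had a fold change below 0, beside 55.4% of all tested genes. At an adjusted p of 0.05, edgeR called 0 of 12, beside 0.606% of tested genes. At an unadjusted p under 0.05 there were 6 of the 12, all lower, beside 8.55% of tested genes. On one side stand chemokine genes that attract neutrophils: CXCL1 was at 125.3 ± 103.0 CPM in the vehicle tumours (SD, n = 6) and at 24.9 ± 11.3 in the evexomostat tumours (SD, n = 5), a log2 fold change of -2.33 (edgeR adjusted p 0.0613), and CXCL3 at 23.7 ± 13.2 and 8.47 ± 2.40 CPM, a log2 fold change of -1.48 (edgeR adjusted p 0.0665). Their groups did not overlap, as in 2.97% of tested genes. Without vehicle replicate 001, CXCL1 and CXCL3 were the 2 of 12 neighbours past the threshold (edgeR adjusted p 0.0337 and 0.0330), both lower. That fit called 5.22% of all tested genes, 1.98% higher and 3.24% lower. On the other side PARM1, next to BTC, had a log2 fold change of -1.07 (edgeR adjusted p 0.224), while RCHY1 and THAP6, farther along, had 0.18 and 0.28 (edgeR adjusted p 0.729 and 0.613).

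**Figure D5:**
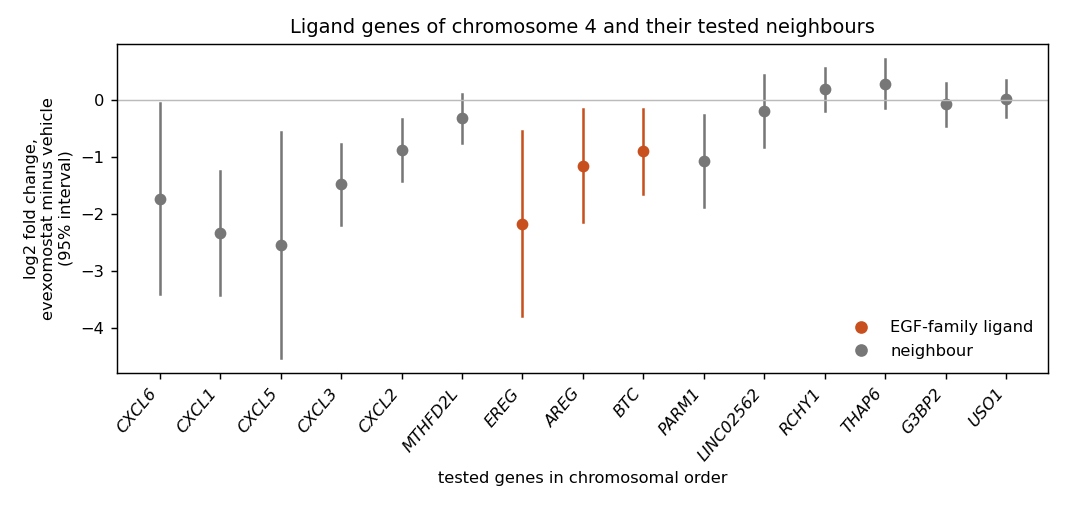
Log2 fold change (evexomostat minus vehicle) with 95% intervals, not adjusted for the number of genes, for EREG, AREG and BTC (orange) and 6 tested genes on each side (grey), in chromosomal order with equal spacing. Values lie below 0 from CXCL6 to LINC02562 and near or above 0 from RCHY1 onward.

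Of the other ligands of the family, NRG2 had 98 to 323 counts per library and a log2 fold change of -0.04 (edgeR adjusted p 0.961). EGF, the founding ligand, had a log2 fold change of -0.46 (edgeR adjusted p 0.650) and NRG4 by 0.09 (edgeR adjusted p 0.947). EPGN, the neighbour of EREG, had 1 to 13 counts and NRG3 0 to 1, and neither passed the filter. Of the 3 tested, 0 were called higher and 0 lower, beside 0.174% and 0.432% of all tested genes. With shares that small, a count of 0 in a short list says little about the list. This holds for each list below.

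Among all tested genes, 0.174% were called higher and 0.432% lower. Of the 11 genes that release the ligands or govern their release, in either direction, 0 were called higher and 0 lower. Their median log2 fold change was -0.27 beside -0.04 over all tested genes. RHBDL2, a membrane protease, had a log2 fold change of -0.76 (edgeR adjusted p 0.212) and ADAM15, a metalloprotease, by 0.33 (edgeR adjusted p 0.352). ADAM17, the main protease that sheds AREG, EREG, TGFA and HBEGF, averaged 109.0 CPM under vehicle and 70.7 under evexomostat, a log2 fold change of -0.62 (edgeR adjusted p 0.386). Without vehicle replicate 001 ADAM17 was past the threshold, at -0.81 (edgeR adjusted p 0.0132), in a fit that called 5.22% of all tested genes. It did not pass with any other single library left out. ADAM17 was singled out after its value was seen.

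Of 14 tested genes that restrain or turn over the receptors, 0 were called higher and 0 lower, beside 0.174% and 0.432% of all tested genes. Their median was -0.23. PTPN12, a tyrosine phosphatase, had a log2 fold change of -0.52 (edgeR adjusted p 0.187) and LRIG1, which promotes the breakdown of EGFR family receptors, by -0.65 (edgeR adjusted p 0.229). Both were past the threshold without vehicle replicate 001 (edgeR adjusted p 0.0371 and 0.0462), a fit that called 5.22% of all tested genes. Neither was with any other single library left out. Among 25 tested adaptors and kinases of the ERK cascade, 0 were called in either direction, beside 0.606% of all tested genes. Their median was -0.17. VAV3, an exchange factor that binds activated receptors, averaged 15.7 CPM under vehicle and 5.61 under evexomostat, a log2 fold change of -1.49 (edgeR adjusted p 0.0851, and 0.0119 without vehicle replicate 001). GAB2, a docking protein, had a log2 fold change of -0.71 (edgeR adjusted p 0.312, and 0.0233 without vehicle replicate 001).

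Genes that ERK signalling switches on, which include feedback inhibitors, had a median of 0.00. Of these, 0 of 14 were called higher and 0 of 14 lower, beside 0.174% and 0.432% of all tested genes. SPRY4, a feedback inhibitor, had a log2 fold change of -0.71 (edgeR adjusted p 0.376) and EGR1, an immediate early factor, by -0.34 (edgeR adjusted p 0.487). The tested neighbours of ERBB2 had a median of 0.03, with 0 of 8 called in either direction, beside 0.606% of all tested genes. Their smallest p-values were those of GSDMB, at 0.69 (edgeR adjusted p 0.257), and ORMDL3, at 0.14 (edgeR adjusted p 0.666). At an unadjusted p under 0.05 there were 8 lower and 2 higher genes among the 75 tested on all 6 lists, beside 8.55% and 4.82% of tested genes. Other settings called some of them. DESeq2 called 1 of 75 (VAV3), against 3.9%, and limma-voom with quality weights 6 of 75 (ADAM17, LRIG1, CBLB, PTPN12, GAB2 and VAV3), against 6.36%. Without vehicle replicate 001 edgeR called 6 of 74 (ADAM17, LRIG1, PTPN12, GAB2, VAV2 and VAV3), against 5.22%. With any other single library left out, edgeR called 0 of the tested list genes. On the 8 libraries with shared replicate numbers, the fit with a replicate block called 1 of 75 (ADAM17), against 0.645%, and the fit without it 7 of 75 (ADAM17, PTPN12, GAB2, VAV3, RASA1, MAP2K1 and SPRY4), against 4.42%. All of these calls were lower under evexomostat. CBLB, VAV2, RASA1 and MAP2K1 are named after their values were seen.

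Markers of other cell types were set beside the ligand differences. All genes of each list were in the table, and a list's summed level is the sum of its CPM in a tumour. The 12 skeletal muscle genes summed to 2.81 to 21.0 CPM under vehicle and 3.26 to 411.8 under evexomostat, where evexomostat replicate 005 was highest. Without that tumour the log2 fold changes of EREG, AREG and ERBB4 were -2.24, -1.11 and -1.29. The 6 fibroblast genes summed to 395.8 to 2055 CPM under vehicle and 493.4 to 1066 under evexomostat, the 5 endothelial genes to 10.4 to 22.4 and 9.92 to 14.0, and the 6 leukocyte genes to 81.8 to 121.2 and 89.4 to 102.4. The 6 adipocyte genes summed to 1.92 to 8.58 and 1.34 to 4.30, with ADIPOQ at 0 in every library, and the 5 epidermal genes to 25.6 to 38.9 and 22.3 to 32.7, with KRT1 at 0 in every library. The 5 nerve sheath genes summed to 18.7 to 28.0 and 19.9 to 32.3. The groups overlapped in all these sums, and their part in the ligand values was not tested.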

How the data were processed

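RNA was sequenced from 6 vehicle and 5 evexomostat tumours as paired-end reads of 150 bases, per the labels' protocols. Per the submitters' processing notes, STAR 2.7.5c, featureCounts, edgeR and the GRCh37 build are named without their roles; strand use, annotation and what was done with mouse reads are not given in the sources used here, so a human gene may hold reads of its mouse counterpart. The deposited count table holds unnormalised read counts per gene symbol. The deposited RPM table holds each count scaled to its library total, by the authors. In the authors' deposited comparison table, fold changes are on a log2 scale, beside p-values and the mean and SD of RPM. Table columns were matched to libraries by the code in the sample description.

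Counts passing filterByExpr (minimum count 10, minimum total 15; 16653 of 28152 symbols) were scaled with TMM and tested with edgeR 4.0.16 in R 4.3.3 (quasi-likelihood F-test, no covariates), with Benjamini-Hochberg adjustment over all tested genes and a threshold of 0.05. A 95% interval uses the standard error implied by the F statistic. All 10 members passed the filter. CPM per kb divides by the union of exons of GENCODE 29 basic transcripts, matched by symbol for 25526 symbols (90.7%); the symbols were counted on another build. Named genes were the members, the 2 smallest p-values of each list, the genes closest to EREG and EGFR, and markers that check the labelled line. Named outside this rule, after their values were seen, were MIEN1, STARD3, CDK12, TCAP, GRB7, NRG2, NRG3, EPGN, the chromosome 4 neighbours and those marked in the text. Members and lists were chosen with earlier results of these data known. P-values for group differences weigh them against the spread between these tumours, and the labels do not say more about the origin of the tumours. Alternatives used DESeq2 1.42.0, limma 3.58.1, other scaling, no filter, a replicate block and leaving out each library. On data simulated from the real means with 200 changed genes, edgeR recovered 40% of log2 changes of 1 and 88% of changes of 2, with 3.76% false calls for this comparison (16452 genes). The changed genes were drawn at random from all tested genes, and no simulated library stood apart. Of the 10 members, 9 varied more than the median gene, so these rates need not hold for them.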

Additional observations from a re-analysis of the deposited data

Results flagged for a closer look

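EREG stood out in vehicle replicate 005, at 167.1 CPM against 6.62 to 56.6 in the other vehicle tumours, because its gap to the next tumour was large for the range of its group (0.689 of the range). This was the only tumour to stand out among 24 groups of values examined, 10 genes and 2 ratios in each treatment group, where about 1.2 would by chance. Without it the log2 fold change of EREG was -1.21 in place of -2.17.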

How the results depend on the processing

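The number of genes called over the whole table was 101, and it was 649 with DESeq2, 1059 with limma-voom and quality weights, and 1 to 865 when each library was left out, with 1, 2, 3, 28 and 46 without evexomostat replicates 005, 002, 007, 004 and 003, 46, 52 and 56 without vehicle replicates 004, 003 and 007, and 865 without vehicle replicate 001. Simulated DESeq2 calls were 18.4% false. Of the calls 28.7% were higher, against 40% with upper quartile scaling and 58.1% on log2(RPM + 1), which moved the median of all genes by 0.11. The replicate block on the 8 libraries with shared numbers gave 107 genes, and no replicate block on the same libraries gave 733. Same-numbered tumours of the 2 groups deviated from their group means with correlations of -0.27, 0.07, 0.05 and -0.10, none of them the best match, so the numbers were not taken to pair them.

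Among members, BTC alone changed its side of the threshold, at -1.15 with quality weights. EREG, AREG, BTC and ERBB4 kept their direction in all alternatives run. Their size moved: on log2(RPM + 1), which understates changes of low genes, they were at -1.44, -0.85, -0.53 and -0.40, and with the replicate block at -1.70, -0.74, -0.74 and -0.85. EGFR was at -0.58 with the block and -0.51 on the same libraries without it, against -0.12. In the order of quality weights, replicate block and no replicate block on the same libraries, ERBB2 was at -0.0625, -0.13 and -0.14, ERBB3 at -0.0844, -0.25 and -0.32, and NRG1 at 0.26, 0.23 and 0.22. HBEGF was at 0.0249 with the block, and TGFA at 0.14 with the block and 0.13 on log2(RPM + 1). With one library left out, EGFR ranged from -0.38 to 0.10, ERBB2 from -0.0797 to 0.13, ERBB3 from -0.11 to 0.29, HBEGF from -0.30 to 0.0119 and TGFA from -0.30 to 0.0819. None of these reversals passed the threshold, and their cause was not tested. Both ratios kept their direction and stayed short of the threshold, but with one library left out the difference in EGFR to ERBB2 ran from -0.07 (without evexomostat replicate 003) to -0.49 (evexomostat 007), and that in HBEGF to AREG from 0.63 (vehicle 005) to 1.22 (vehicle 007). With the longest coding transcript as length, NRG1 was at 2.41 CPM per kb under vehicle in place of 1.55, above TGFA. The lowest counts in a library were 7 for ERBB4, 22 for ERBB3 and 31 for BTC. The levels by longest transcript and the correlations without vehicle replicate 001 were added after the data had been seen.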
